A study of Mus musculus with 7 samples.

Results

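The vomeronasal receptor genes of the mouse, named *Vmn1r* (V1R) and *Vmn2r* (V2R), were examined in nasal tissue of mice that inhaled diesel exhaust particles (DEP). The members were all genes whose symbol begins with *Vmn1r* or *Vmn2r*, where the symbol came from a match of each spot's transcript accession to the RefSeq gene table, and control spots were left out. This gave 256 genes, 166 V1R and 90 V2R, of 21367 named genes on the array, measured by 290 of 39429 probes. The animals were BALB/c females aged 6 weeks, which inhaled nebulized DEP suspended in saline at 100 µg/m3, 1 hour a day and 5 days a week, for 4 or for 8 weeks, while control mice of the same strain, sex and age were given saline without DEP. RNA of DEP mice (Cy5) and of control mice (Cy3) was hybridized together on each array, with 4 arrays of 4 weeks on 1 slide and 3 arrays of 8 weeks on another. The dyes were never swapped, so dye and exposure cannot be told apart, and neither can slide and exposure time. The number of mice behind an array, the pooling of control RNA and the inclusion of the vomeronasal organ in the dissected piece are not given in the sources used here.

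Vomeronasal receptors detect pheromones and other chemosignals in the sensory neurons of the vomeronasal organ, a paired tube in the floor of the nasal septum. V1R receptors are made by apical neurons that signal through the G protein Gαi2 and mostly bind small molecules such as steroids. V2R receptors are made by basal neurons that signal through Gαo and bind peptides and proteins. A neuron makes 1 V1R, or 1 V2R together with a co-receptor of the family C (*Vmn2r1* to *Vmn2r7*), so each gene is active in few cells of the nose. In bulk tissue such as this, fewer cells of a type and less RNA per cell cannot be told apart. Members of both families lie in clusters of close paralogs, and which paralog a probe measured is uncertain for near-identical genes.

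Many members gave no signal above background. A reading was counted as detected when the scanner software marked the probe as well above background, and each gene had 14 readings, 1 for each RNA of each of the 7 arrays. Of the 256 genes, 128 were above background in no reading, of which 89 were V1R and 39 V2R. At the other end, 6 genes were above background in all 14 readings, namely the V1R genes *Vmn1r70*, *Vmn1r87*, *Vmn1r204* and *Vmn1r217* and the V2R genes *Vmn2r3* and *Vmn2r121*. The remaining 73 V1R and 49 V2R genes had between 1 and 13 such readings. On single arrays, between 54.2% and 77.4% of all named genes were above background in 1 RNA.

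The V1R family was detected more widely on the 8-week arrays than on the 4-week arrays. At 4 weeks the DEP RNA gave 16, 19, 16 and 14 V1R genes above background on replicates 1 to 4, and the control RNA gave 13, 15, 11 and 17. At 8 weeks the DEP RNA gave 38, 44 and 37 V1R genes on replicates 1 to 3, and the control RNA gave 22, 40 and 25. The ranges of the exposure times did not overlap in either RNA, which also holds between the slides. Over all named genes the DEP RNA did not overlap either, with 58.2% to 70.1% of genes above background at 4 weeks and 70.6% to 73.3% at 8 weeks, whereas the control RNA overlapped, with 54.2% to 68.6% and 62.3% to 77.4%. V2R genes showed no such separation. Their DEP RNA gave 7, 28, 21 and 20 genes at 4 weeks and 23, 23 and 17 at 8 weeks. Their control RNA gave 9, 11, 15 and 17 genes at 4 weeks and 11, 23 and 12 at 8 weeks, so both ranges overlapped. Of the 153 negative control spots, 0 to 2 passed the same mark in the DEP channel and 1 to 10 in the control channel.

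**Figure D1:**
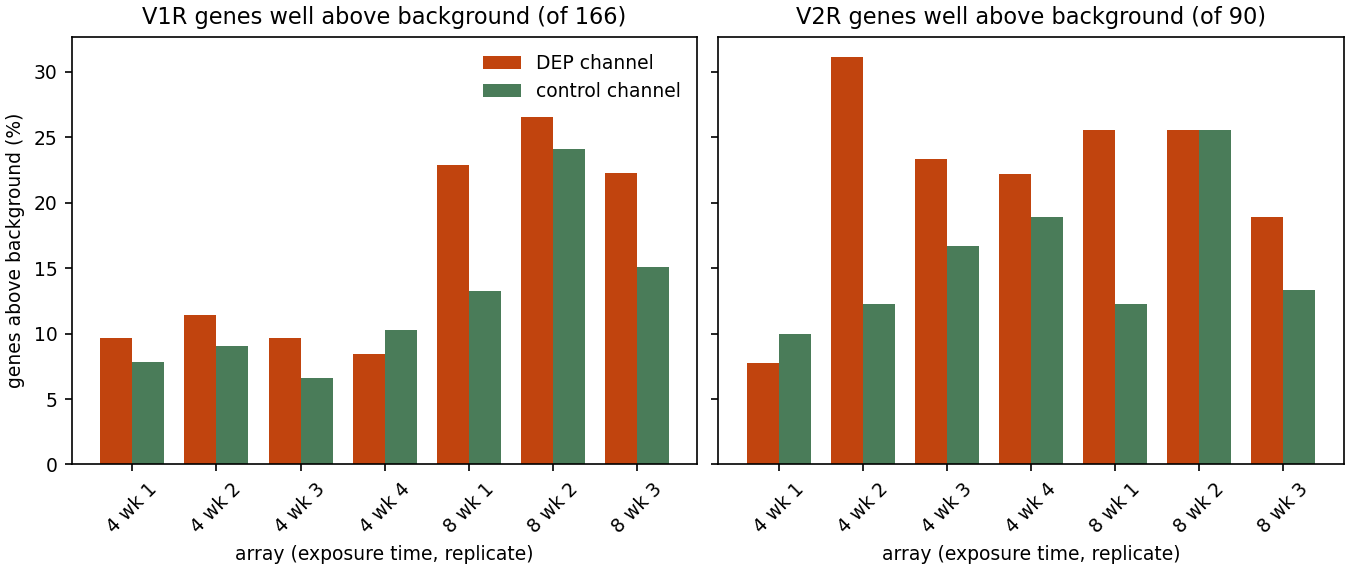
Percent of the 166 V1R genes (left) and of the 90 V2R genes (right) well above background on each array, with 1 bar for the DEP RNA and 1 for the control RNA. V1R bars of the 3 arrays of 8 weeks are all above those of the 4 arrays of 4 weeks, whereas V2R bars of the exposure times overlap.

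Counts of genes above background on all arrays of an exposure time were higher in DEP RNA than in control RNA. In the V1R family, 9 genes were detected on all 4 arrays of 4 weeks in DEP RNA and 4 in control RNA, and 31 and 15 genes on all 3 arrays of 8 weeks. In the V2R family the same counts were 7 and 3 at 4 weeks and 15 and 7 at 8 weeks. All named genes leaned the same way, with 57.1% in DEP RNA and 49.1% in control RNA at 4 weeks and 68.3% and 61.1% at 8 weeks. The mark rests on the background of each colour, and the part of the colours in these counts was not tested.

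Receptors with a known ligand or place of action were mostly among the dim genes. *Vmn2r1*, a family C co-receptor, *Vmn2r26*, a receptor for peptide ligands of the major histocompatibility complex, and *Vmn1r49*, a receptor for the urinary ketone heptanone, were above background in 0 of 14 readings. *Vmn1r85*, a sulfated steroid receptor, *Vmn2r115*, a receptor for an exocrine gland peptide, and *Vmn2r83*, known from the Grueneberg ganglion, had 1 such reading each. *Vmn2r5*, another family C member, and *Vmn2r116*, the receptor of the male tear peptide ESP1, had 2 each. *Vmn2r2*, *Vmn2r6*, *Vmn2r7* and *Vmn2r88* were not analysed here. Hence the family C was represented by *Vmn2r3* and *Vmn2r4*, which had 14 and 11 readings above background.

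The sequence before the gene start is shown for 4 members whose ratios are described below, since their neurons are defined by which receptor gene is switched on. RefSeq (GRCm38.p6) gave such a window for 230 of the 256 members, and the 200 bases upstream of the start are printed 5′ to 3′ on the gene's strand. *Vmn2r121* and *Vmn2r89*, both higher in DEP RNA at 4 weeks, have near-identical windows although they lie on different chromosomes, with 234 of 249 aligned bases the same (94.0%), and capitals mark the 10 bases that differ within the printed stretch. None of the other windows was at least 80% identical to either of them. *Vmn1r65* is the V1R gene that fell at 8 weeks, and capitals mark TATAAA as read on the other strand, which begins 51 bases upstream. *Vmn1r195*, higher at both times, and *Vmn2r121* hold none of the motifs searched within the printed stretch. *Vmn2r89* holds CCCNNGGG, which begins 191 bases upstream and is not what its capitals mark.
*Vmn2r121*, chrX:124135911-124136110, reverse strand: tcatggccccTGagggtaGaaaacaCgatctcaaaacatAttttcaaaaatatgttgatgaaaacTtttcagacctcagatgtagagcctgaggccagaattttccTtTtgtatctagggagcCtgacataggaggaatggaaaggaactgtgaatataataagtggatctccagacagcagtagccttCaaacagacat
*Vmn2r89*, chr14:51451762-51451961, forward strand: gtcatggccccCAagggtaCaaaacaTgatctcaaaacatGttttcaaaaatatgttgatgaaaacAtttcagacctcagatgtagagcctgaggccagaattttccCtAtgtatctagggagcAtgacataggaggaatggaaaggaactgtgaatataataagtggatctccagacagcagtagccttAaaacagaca
*Vmn1r65*, chr7:6011011-6011210, reverse strand: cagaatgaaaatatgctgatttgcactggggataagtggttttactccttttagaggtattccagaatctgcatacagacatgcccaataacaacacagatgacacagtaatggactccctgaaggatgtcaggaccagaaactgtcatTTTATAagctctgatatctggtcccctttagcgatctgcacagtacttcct
*Vmn1r195*, chr13:22278117-22278316, forward strand: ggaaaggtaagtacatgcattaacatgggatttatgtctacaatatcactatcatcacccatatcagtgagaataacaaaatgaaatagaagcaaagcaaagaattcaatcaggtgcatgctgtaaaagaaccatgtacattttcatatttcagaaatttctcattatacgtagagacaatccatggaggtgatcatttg

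Short motifs were searched on both strands of the 250 bases before the start, and a base could belong to more than 1 motif. TATAAA was found in 36.3% of 146 V1R windows, 24.7% of 85 V2R windows and 12.4% of all 32851 windows. CCCNNGGG was found in 0% of V1R windows, 16.5% of V2R windows and 11.8% of all, and TGANTCA in 15.1%, 25.9% and 6.75%. TAATTA was found in 10.27% of V1R windows, 15.3% of V2R windows and 4.84% of all. These shares describe letters only, because the gene model begins at the start codon in 82.9% of V1R windows and 85.9% of V2R windows, against 5.83% of all windows. Most of the windows therefore lie before a coding start and not before a mapped start of transcription. *Vmn1r214*, *Vmn1r89*, *Vmn1r2* and *Vmn1r56* had no window.

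A gene was tested when a probe of it was well above background in either RNA on at least 3 of the 7 arrays, which held for 33 V1R and 27 V2R genes, and its brightest such probe gave its value. Values are log2 ratios of DEP over control RNA on the same array after background correction with an added offset, which makes the ratios of dim genes smaller. A gene was called at an adjusted p of at most 0.05 (limma, Benjamini-Hochberg over all probes tested). Members that passed the detection rule through DEP RNA alone had to lean towards DEP, and those that passed through control RNA alone towards control. A member whose control RNA was above background on fewer than 3 arrays likewise needed DEP RNA to pass. Among the genes called as higher these were *Vmn1r2*, *Vmn1r52*, *Vmn1r54*, *Vmn1r82*, *Vmn1r89*, *Vmn1r183*, *Vmn2r33*, *Vmn2r52* and *Vmn2r57*. For each family, the median over all its members and the number of called genes also detected in control RNA are therefore given.

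After 4 weeks of exposure, 5 of the 33 tested V1R genes were higher in DEP RNA and 0 were lower. Over all 20664 genes or transcripts tested, 38.2% were called, 21.5% as higher and 16.7% as lower. The 15.2% of tested V1R genes called as higher lie below the 21.5%. However, 10 of the 33 had every 4-week reading at or below background, so they were tested through the 8-week arrays. This held for 2 of the 27 tested V2R genes. Every 8-week reading was at or below background for 0 of the 33 and 5 of the 27. The shares of the 2 times therefore rest partly on which arrays fed the rule. Of the V2R genes, 7 of 27 (25.9%) were higher and 1 was lower, which is near the share over all genes. Of the 5 V1R genes, 2 were above background in control RNA on every 4-week array and 3 on some, and of the 7 V2R genes 2 were so on every array, 3 on some and 2 on none. At an unadjusted p under 0.05, 8 V1R and 10 V2R genes passed. The median log2 ratio was 0.068 over tested and -0.05 over all V1R genes, 0.052 and -0.01 for V2R genes, and -2.8e-05 and -0.029 over all genes, but with median centring the median over all members was 0.0070 for V1R and 0.032 for V2R genes. With the software's own processed signals it was -0.87 for V1R and -0.78 for V2R genes, against -0.17 over all genes. With these signals 8 V1R genes were higher and 6 lower, and 9 V2R genes were higher and 4 lower. The V1R count was 3 without replicate 1 and 2 without replicate 2 of 4 weeks, and the V2R count was 3 without replicate 2 or without replicate 3.

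*Vmn1r70* had the largest ratio of the V1R genes at 4 weeks. Its log2 ratios were 0.71, 0.40, 0.40 and 0.51 on replicates 1 to 4, with a mean of 0.50 ± 0.079 (SE, n = 4; limma adjusted p = 0.0023), and it was above background in both RNAs on all 4 arrays. At 8 weeks its ratios of 0.75, 0.54 and 0.34 overlapped those of 4 weeks, with a mean of 0.54 ± 0.091 (SE, n = 3; limma adjusted p = 0.0030). The difference between the times was 0.040 ± 0.12 (SE; limma adjusted p = 0.83). With median centring in place of loess the 8-week mean was 0.21 (limma adjusted p = 0.11).

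*Vmn1r52* rose by 0.31 ± 0.064 at 4 weeks (SE, n = 4; limma adjusted p = 0.0079), with ratios between 0.27 and 0.37 on every array, although its control RNA was above background on only 1 of them. It needed DEP RNA to pass the detection rule, so its call cannot be read apart from that rule. *Vmn1r48* rose by 0.21 ± 0.05 (SE, n = 4; limma adjusted p = 0.014), with ratios of 0.15, 0.21, 0.22 and 0.26. *Vmn1r217* rose by 0.42 ± 0.12 on its brighter probe (limma adjusted p = 0.026), and its second tested probe gave -0.57 ± 0.29 (limma adjusted p = 0.16). That second probe stood at -1.85 on replicate 2 and between -0.59 and 0.10 on the other arrays, so the probes of *Vmn1r217* disagreed at 4 weeks. The last of the 5, *Vmn1r195*, rose by 0.19 ± 0.063 (limma adjusted p = 0.0497). Its adjusted p was between 0.054 and 0.14 without any 1 of 6 of the arrays. The adjusted p of *Vmn1r217* was between 0.0501 and 0.081 without any 1 array of 4 weeks, and that of *Vmn1r48* was 0.051 without replicate 2 and 0.055 without replicate 4.

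Among V2R genes, *Vmn2r121* had the clearest difference at 4 weeks. It is the only member on chromosome X, and it was above background in all 14 readings. Its log2 ratios were 0.41, 0.61, 0.71 and 0.64 at 4 weeks, with a mean of 0.59 ± 0.06 (SE, n = 4; limma adjusted p = 0.00032). At 8 weeks they were 0.22, 0.24 and 0.39, all below the 4-week values, with a mean of 0.28 ± 0.07 (SE, n = 3; limma adjusted p = 0.016). The fall between the times was -0.31 ± 0.092 (SE; limma adjusted p = 0.038), and the second probe of *Vmn2r121* gave 0.28 and 0.16, both called. The 8-week call was lost without replicate 2 (limma adjusted p = 0.059) or replicate 3 (0.084) of 8 weeks. The difference was lost without any 1 of 5 of the arrays, with limma adjusted p up to 0.12.

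*Vmn2r43* rose by 0.37 ± 0.058 at 4 weeks (SE, n = 4; limma adjusted p = 0.0024), with ratios of 0.50, 0.32, 0.25 and 0.39, and its 8-week ratios of 0.018, 0.23 and 0.095 were all lower than those. *Vmn2r33* had ratios of 0.59, 0.40, 0.11 and 0.27 at 4 weeks (limma adjusted p = 0.015) and 0.11, 0.37 and 0.12 at 8 weeks, so its values at the exposure times overlapped. *Vmn2r33* and *Vmn2r121* are on the list of up-regulated genes that the study chose on these samples, so neither is independent evidence. *Vmn2r89*, the gene with the upstream sequence close to that of *Vmn2r121*, rose by 0.23 ± 0.06 (limma adjusted p = 0.021). *Vmn2r3* rose by 0.22 ± 0.069 (limma adjusted p = 0.037), *Vmn2r52* by 0.22 ± 0.057 (0.018) and *Vmn2r10* by 0.24 ± 0.073 (0.036). Control RNA of *Vmn2r10* and *Vmn2r52* was never well above background at 4 weeks. *Vmn2r33* and *Vmn2r52* needed DEP RNA to pass the detection rule, so their calls cannot be read apart from it. The bound for *Vmn2r10* was at least 1.05-fold, and for *Vmn2r52* no rise could be bounded (log2 bound -0.012). The calls of *Vmn2r3*, *Vmn2r10*, *Vmn2r33*, *Vmn2r52* and *Vmn2r89* were each lost without at least 1 array, with limma adjusted p between 0.0503 and 0.13.

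The members with the lowest ratios at 4 weeks had strong control signals on some arrays. *Vmn2r15* was the only member called as lower. Before normalization, its signals over background on replicates 1 to 4, in scanner units, were 118, 381, 126 and 5 in control RNA and 14, 7, 2.5 and -3.5 in DEP RNA. Its log2 ratios were -0.97, -1.46 and -0.13 on replicates 1, 3 and 4, and replicate 2 gave no ratio because its spot was left out as not uniform (limma adjusted p = 0.023, n = 3). Its DEP RNA was never well above background at 4 weeks, and the difference was at least 1.76-fold. *Vmn2r28* had ratios of -0.26, -1.08, -2.46 and -0.036 and did not pass (limma adjusted p = 0.063). Both genes were below background in every reading at 8 weeks. *Vmn2r15* and *Vmn2r28* thus passed the detection rule through control RNA of 4 weeks alone, so the rule itself made them lean towards control. The call of *Vmn2r15* is therefore no evidence of a fall. Over all arrays, 21 of 166 V1R and 18 of 90 V2R genes had a ratio under -1 on at least 1 array, and 2 V1R and 0 V2R genes had one over 1. Ratios under -1 were found for 5, 8, 17 and 6 members on the 4-week arrays and for 5, 0 and 0 on the 8-week arrays.

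**Figure D2:**
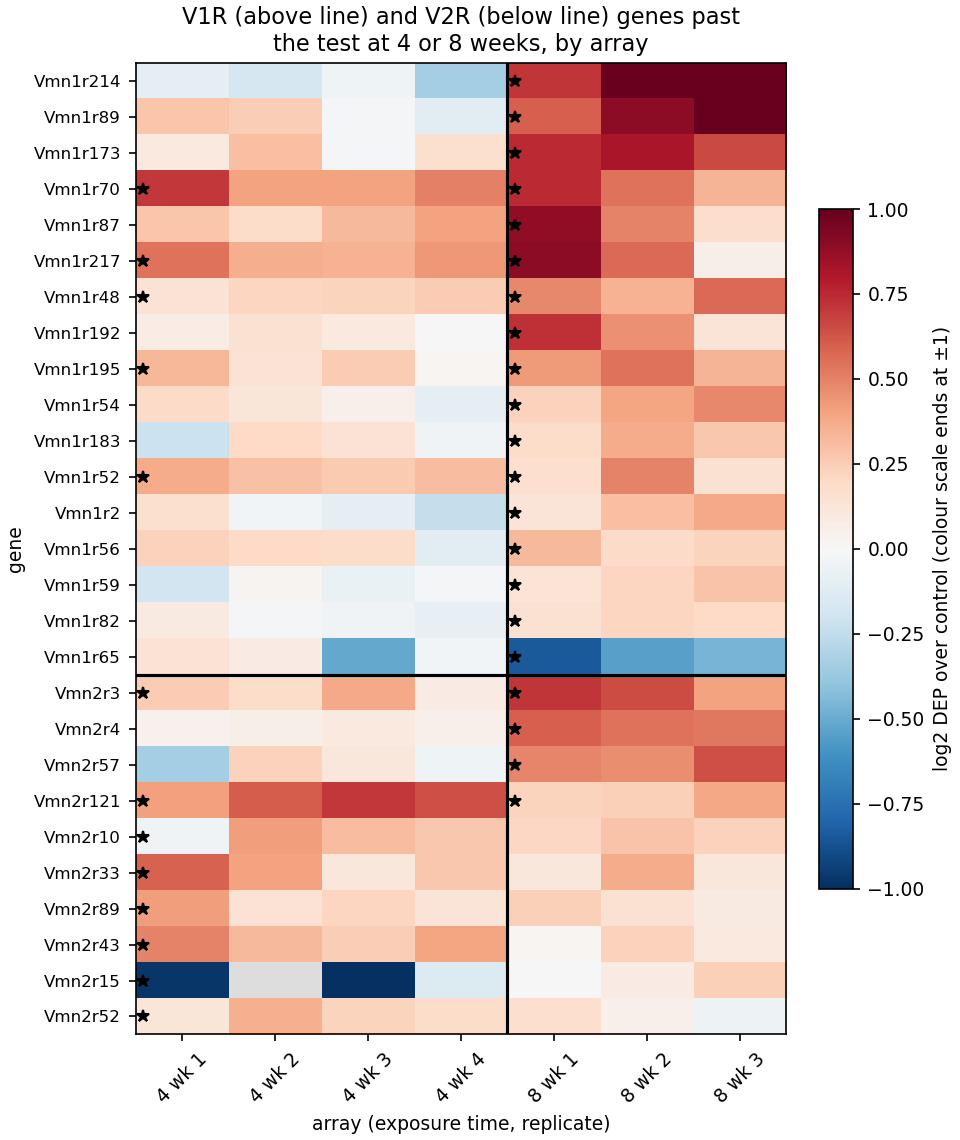
Log2 ratio of DEP over control RNA on each of the 7 arrays for the 27 members called at 4 or 8 weeks, with V1R genes above the line, V2R genes below it, and stars at the times at which a gene was called. Red marks higher and blue lower in DEP RNA, the colours end at -1 and 1, and grey marks the array on which *Vmn2r15* had no ratio.

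After 8 weeks of exposure, 16 of 33 tested V1R genes (48.5%) were higher in DEP RNA and 1 was lower. Over all genes, 37.5% were called, 20.4% as higher and 17.1% as lower. Of the 27 V2R genes, 4 (14.8%) were higher and 0 lower, with 5 at an unadjusted p under 0.05, and 19 V1R genes had such a p. The median log2 ratio was 0.27 over tested V1R genes, 0.12 over tested V2R genes and 0.013 over all genes tested. Over all members it was 0.049 for V1R and 0.043 for V2R genes, and 0.003 over all genes, but with the software's processed signals these medians were -0.13, -0.11 and -0.10. Of the 16 V1R genes called as higher, 9 were above background in control RNA on every 8-week array, 4 on some and 3 on none, and of the 4 V2R genes 3 were so on every array and 1 on some. *Vmn1r2*, *Vmn1r52*, *Vmn1r54*, *Vmn1r82*, *Vmn1r89*, *Vmn1r183* and *Vmn2r57* needed DEP RNA to pass the detection rule. The counts of higher genes thus include members that the rule tilted towards DEP. The rule held for all genes, and its part in these shares was not tested. The V1R count was 9, 7 and 11 without replicates 1, 2 and 3 of 8 weeks, when 22 to 23 V1R genes were tested, and the V2R count was 2 without replicate 2. At the thresholds of the methods (p of at most 0.01 and at least 2-fold), 0 members passed at either time, against 1.31% of all genes at 4 weeks and 2.94% at 8 weeks.

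**Figure D3:**
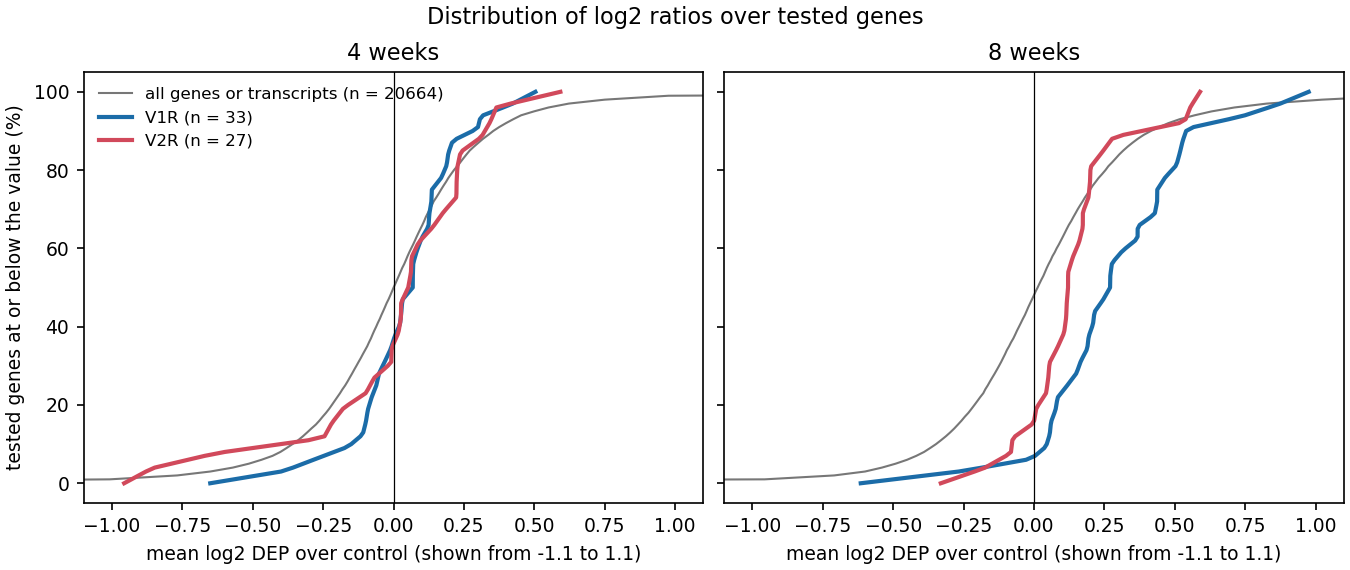
Cumulative percent of tested genes (vertical axis) by mean log2 ratio of DEP over control RNA (horizontal axis) at 4 and 8 weeks, for 33 V1R genes, 27 V2R genes and all 20664 genes or transcripts. At 8 weeks the V1R curve lies to the right of the curve of all genes over most of its range, with medians of 0.27 and 0.013, and at 4 weeks the curves lie close together. The tested V1R genes include members that needed DEP RNA to pass the detection rule.

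The 3 largest V1R ratios belonged to genes that did not pass at 4 weeks. *Vmn1r214*, a gene of the chromosome 13 cluster, had log2 ratios of 0.72, 1.08 and 1.13 at 8 weeks, with a mean of 0.98 ± 0.093 (SE, n = 3; limma adjusted p = 0.00018), or 1.97-fold. At 4 weeks its ratios were -0.087, -0.17, -0.047 and -0.34 (limma adjusted p = 0.15), so the values at the exposure times were far apart. The difference of 1.14 ± 0.12 (SE; limma adjusted p = 0.00057) was the largest of the tested members, and *Vmn1r214* was the only member past the methods' thresholds for it, against 3.07% of all genes. Before normalization, the signals of its probe over background, in scanner units, were 369, 464.5 and 444.5 in DEP RNA and 278, 268.5 and 278 in control RNA at 8 weeks. At 4 weeks they were between 19.5 and 76.5 in DEP RNA and between 27.5 and 93.5 in control RNA. Both RNAs were thus brighter on the 8-week slide.

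*Vmn1r89*, a sulfated steroid receptor on chromosome 7, had ratios of 0.60, 0.89 and 1.12 at 8 weeks (mean 0.87 ± 0.11, SE, n = 3; limma adjusted p = 0.00094). Its 4-week ratios were 0.28, 0.24, -0.016 and -0.11, all lower, and the difference was 0.77 ± 0.15 (SE; limma adjusted p = 0.0078). Its control RNA was above background on 0 arrays of 4 weeks and 2 of 8 weeks. *Vmn1r89* thus needed DEP RNA to pass the detection rule, and its calls cannot be read apart from that rule. *Vmn1r173*, also on chromosome 7, had ratios of 0.74, 0.82 and 0.66 at 8 weeks (mean 0.74 ± 0.069, SE, n = 3; limma adjusted p = 0.00017) and 0.095, 0.30, -0.016 and 0.16 at 4 weeks. The difference was 0.60 ± 0.092 (SE; limma adjusted p = 0.0026), and no 4-week array reached the lowest 8-week value. With each array left out in turn these 3 genes kept their calls at 8 weeks and for the difference, which does not remove the part of the rule for *Vmn1r89*. The difference for *Vmn1r173* was 0.34 (limma adjusted p = 0.16) with the software's processed signals.

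*Vmn1r87* and *Vmn1r217*, above background in all 14 readings, spread more widely over the 8-week arrays. *Vmn1r87* had ratios of 0.88, 0.50 and 0.17 (limma adjusted p = 0.012) and *Vmn1r217* had 0.89, 0.56 and 0.060 (0.022), so both were highest on replicate 1 and lowest on replicate 3. The second tested probe of *Vmn1r217* gave 0.11, 0.13 and -0.12, with a mean of 0.041 (limma adjusted p = 0.94), so the call rests on 1 of its probes. *Vmn1r192* followed the same order with 0.73, 0.46 and 0.13 (limma adjusted p = 0.013). Without replicate 2 the adjusted p was 0.056, 0.11 and 0.066 for *Vmn1r87*, *Vmn1r217* and *Vmn1r192*, and without replicate 1 it was 0.10 for *Vmn1r217* and 0.051 for *Vmn1r192*. With median centring, *Vmn1r87* and *Vmn1r217* did not pass either (limma adjusted p = 0.22 and 0.28).

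*Vmn1r48* and *Vmn1r195* rose more evenly. *Vmn1r48* had ratios of 0.48, 0.35 and 0.56 at 8 weeks (mean 0.47 ± 0.057, SE, n = 3; limma adjusted p = 0.00070), all above its 4-week values, and *Vmn1r195* had 0.43, 0.54 and 0.34 (limma adjusted p = 0.0030). *Vmn1r52* and *Vmn1r54* had control RNA below background on all 3 arrays and were at least 1.12-fold and at least 1.28-fold higher, and *Vmn1r52* lost its call without replicate 2 (limma adjusted p = 0.13). *Vmn1r2* was at least 1.20-fold higher by the same measure. *Vmn1r2* and *Vmn1r54* passed the detection rule through DEP RNA of 8 weeks alone, so the rule itself made them lean towards DEP. Their calls are therefore no evidence of a rise. *Vmn1r52*, *Vmn1r82* and *Vmn1r183* also needed DEP RNA to pass, so their calls cannot be read apart from the rule. The mean log2 ratios of *Vmn1r2*, *Vmn1r56*, *Vmn1r59*, *Vmn1r82* and *Vmn1r183* lay between 0.19 and 0.28 (limma adjusted p between 0.025 and 0.039). Of these, *Vmn1r2*, *Vmn1r56*, *Vmn1r82* and *Vmn1r183* fell outside the rule for named genes and were chosen after their values were seen. *Vmn1r183* lost its call without replicate 4 of 4 weeks (limma adjusted p = 0.055) and *Vmn1r2* without replicate 2 of 4 weeks (0.052).

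*Vmn1r65* was the V1R gene that fell. Its log2 ratios were -0.84, -0.54 and -0.47 at 8 weeks, with a mean of -0.61 ± 0.13 (SE, n = 3; limma adjusted p = 0.0084), and it was above background in both RNAs on all 3 arrays. At 4 weeks they were 0.14, 0.079, -0.51 and -0.025, and the 4-week replicate 3 reached into the 8-week range. The difference of -0.54 ± 0.17 (SE; limma adjusted p = 0.049) was lost without any 1 of 6 of the arrays, with adjusted p up to 0.14. *Vmn1r240*, the other V1R gene lower on all 8-week arrays, had ratios of -0.22, -0.15 and -0.39 and did not pass (limma adjusted p = 0.20).

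In the V2R family, both tested co-receptor genes of family C rose at 8 weeks. *Vmn2r4* had ratios of 0.60, 0.54 and 0.53 at 8 weeks and 0.043, 0.060, 0.095 and 0.048 at 4 weeks, so that the spread within each time was small beside the gap between them. Its means were 0.56 ± 0.047 (SE, n = 3; limma adjusted p = 9.9e-05) and 0.062 ± 0.041 (SE, n = 4; 0.26), and the difference was 0.49 ± 0.062 (SE; limma adjusted p = 0.0011). *Vmn2r3*, its neighbour in family C on chromosome 3, had 0.71, 0.66 and 0.40 at 8 weeks (limma adjusted p = 0.0011) and 0.25, 0.18, 0.38 and 0.082 at 4 weeks. All 8-week ratios of *Vmn2r3* were above all 4-week ratios, with a difference of 0.37 ± 0.11 (SE; limma adjusted p = 0.035). That difference was 0.18 (limma adjusted p = 0.32) with median centring, and its adjusted p was 0.076 to 0.12 without any 1 of 4 of the arrays.

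*Vmn2r57* was below background in every reading at 4 weeks and had ratios of 0.49, 0.47 and 0.65 at 8 weeks (mean 0.54 ± 0.10, SE, n = 3; limma adjusted p = 0.0059). It was above background in DEP RNA on all 3 of these arrays and in control RNA on 1. DEP RNA of 8 weeks thus put *Vmn2r57* in the test, and the rule itself made it lean towards DEP. Its calls are therefore no evidence of a rise. The fourth V2R gene that rose at 8 weeks was *Vmn2r121*. For *Vmn2r35*, chosen after its values were seen because its 2 tested probes disagreed, the brighter gave 0.14 (limma adjusted p = 0.24) and the other 0.49 (limma adjusted p = 0.0016) at 8 weeks, so the gene was not called by the rule used here. The lowest V2R ratios with the same sign on every 8-week array were those of *Vmn2r75* (-0.18), *Vmn2r28* (-0.082) and *Vmn2r55* (-0.076), and none of these passed. The second tested probe of *Vmn2r55* had the opposite sign on every 8-week array, with a mean of 0.25 (limma adjusted p = 0.070).

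**Figure D4:**
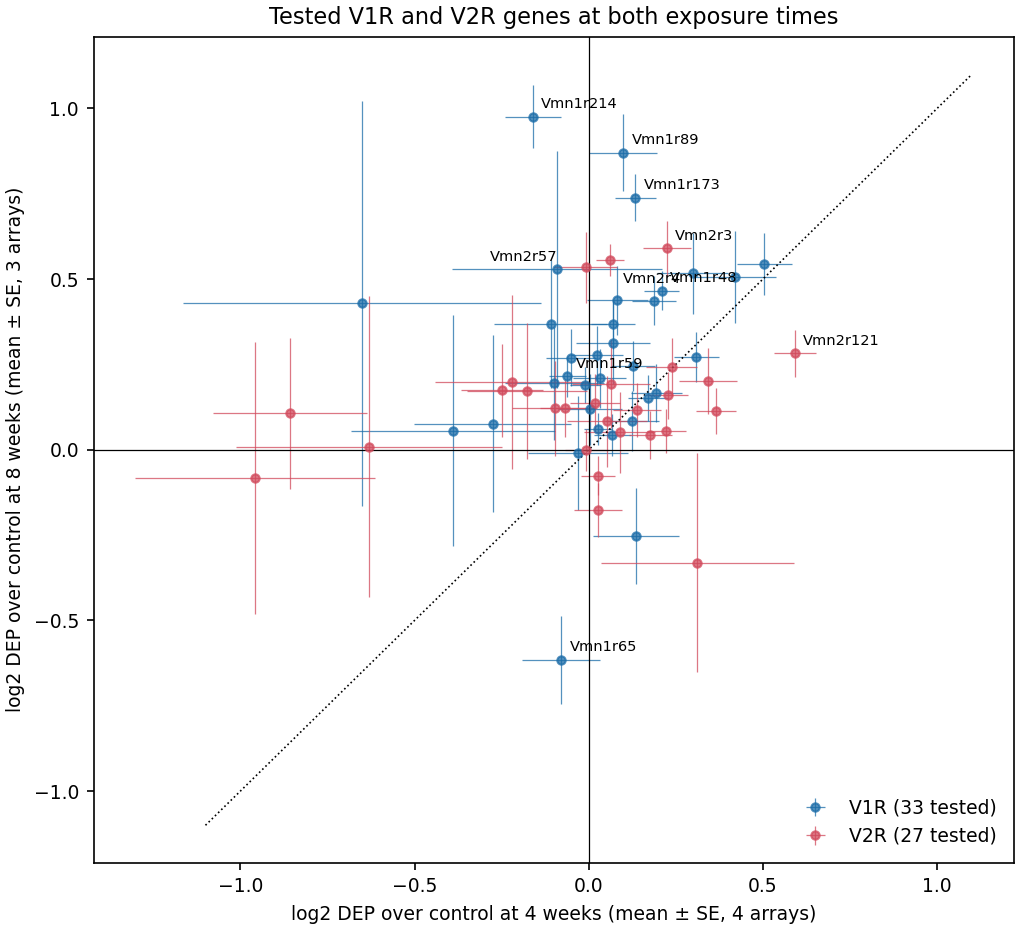
Mean log2 ratio of DEP over control RNA at 4 weeks (horizontal axis, 4 arrays) against 8 weeks (vertical axis, 3 arrays) for the 60 tested members, with standard errors as bars and equal values on the dotted line. The 10 named genes are those with a called difference between the times, and *Vmn1r214* stands highest at 0.98 at 8 weeks and -0.16 at 4 weeks.

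Of the members called as higher, 7 were so at both times, which is 58.3% of the 12 of 4 weeks and 35.0% of the 20 of 8 weeks. Over all genes or transcripts these shares were 37.7% and 39.7%. In the V1R family 5 genes were higher at both times, which are all 5 called at 4 weeks, and 11 passed at 8 weeks but not at 4 weeks. Of those 11, the 6 genes *Vmn1r2*, *Vmn1r54*, *Vmn1r56*, *Vmn1r59*, *Vmn1r82* and *Vmn1r183* were above background in no reading of either RNA at 4 weeks, so they were tested only through the 8-week arrays and their 4-week ratios are those of background. In the V2R family *Vmn2r3* and *Vmn2r121* were higher at both times, 5 genes passed only at 4 weeks, and *Vmn2r4* and *Vmn2r57* passed only at 8 weeks. The difference between the times, tested directly, was called for 31.0% of all genes or transcripts. It was called for 10 of 60 members, of which *Vmn1r214*, *Vmn1r173*, *Vmn1r89*, *Vmn1r59*, *Vmn1r48*, *Vmn2r4*, *Vmn2r57* and *Vmn2r3* were higher and *Vmn1r65* and *Vmn2r121* lower at 8 weeks. The count was 6 without replicate 2 of 4 weeks and 5 without replicate 1 or replicate 2 of 8 weeks. *Vmn1r214*, *Vmn1r173*, *Vmn1r89* and *Vmn2r4* kept it in each of the 7 fits that left out 1 array. *Vmn1r48* differed by 0.26 ± 0.076 (SE; limma adjusted p = 0.038), and lost its call in 6 of these 7 fits. *Vmn1r59* gave 0.28 ± 0.08 (SE; limma adjusted p = 0.036), a value set against background at 4 weeks, and lost its call in 2 of the 4 fits in which it was tested.

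The called V1R genes of 8 weeks lay in all but 1 of the V1R chromosomes. Of the 65 V1R genes on chromosome 7, 18 were tested and 8 rose, of the 35 on chromosome 13, 7 were tested and 4 rose, and of the 51 on chromosome 6, 7 were tested and 3 rose. *Vmn1r2* is the only V1R member on chromosome 4, and it was called as higher after passing the detection rule through DEP RNA alone. *Vmn1r82*, *Vmn1r89* and *Vmn1r183* on chromosome 7 and *Vmn1r52* and *Vmn1r54* on chromosome 6 also needed DEP RNA to pass. None of the 14 V1R genes on chromosome 17 was tested. The 26 V2R genes on chromosome 17 gave 1 tested gene and 0 calls, whereas the 37 on chromosome 7 gave 16 tested genes, of which 3 rose at 4 weeks and 1 at 8 weeks. Over all genes or transcripts, 21.5% were called as higher at 4 weeks and 20.4% at 8 weeks. Whether any chromosome departed from these shares was not tested.

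The other genes of vomeronasal neurons were read beside the receptors. Of the vomeronasal transduction list, 5 of 6 genes were on the array and all were tested, and *Trpc2*, the channel of vomeronasal neurons, was not analysed here. At 4 weeks *Gng8*, a G protein subunit of these neurons, rose by 0.51, *Gnao1* (Gαo, also in other neurons) by 0.42 and *Calr4* by 0.33, and *Tfap2e*, a transcription factor of basal neurons, fell by 0.21 (limma adjusted p between 0.0019 and 0.018). At 8 weeks *Gnai2* (Gαi2, made by many cell types) rose by 0.28, *Tfap2e* by 0.24 and *Calr4* by 0.22, and *Gnao1* fell by 0.43 (limma adjusted p between 0.0040 and 0.040), and with median centring the list's median turned from 0.22 to -0.026. The 3 genes higher at 8 weeks became 1 with the background fit on all spots and 1 without background subtraction, and the gene lower at 4 weeks was not called with the fit on all spots or with the processed signals. *Gng8* gave -0.26 at 8 weeks (limma adjusted p = 0.070). Over all genes or transcripts, 21.5% were called as higher and 16.7% as lower at 4 weeks, and 20.4% and 17.1% at 8 weeks. Of the H2-M genes, which are expressed with V2R receptors, 8 of 9 were on the array, 4 were tested and 0 were called. Of the formyl peptide receptors of the vomeronasal organ, 4 of 5 were on the array and only *Fpr-rs3* was tested, which rose by 0.28 at 8 weeks (limma adjusted p = 0.0098) and gave 0.064 at 4 weeks (0.37).

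Markers of the main olfactory neurons were higher in DEP RNA at 4 weeks and lower at 8 weeks. All 12 were above background in all 14 readings. At 4 weeks 8 of 12 rose, with a median log2 ratio of 0.43, and at 8 weeks 11 of 12 fell, with a median of -0.54, and no background or scaling alternative turned either direction. Over all genes or transcripts, 21.5% were called as higher at 4 weeks and 17.1% as lower at 8 weeks. The summed level of the 12 markers on the log2 scale was 17.2 to 17.5 in DEP RNA and 16.4 to 16.7 in control RNA at 4 weeks. It was 16.4 to 16.8 and 17.1 to 17.3 at 8 weeks, with no overlap at either time. Such a sum weighs bright genes most, here *Omp* (mean log2 intensity 16.4, against 13.8 for the next, *Gng13*). *Omp*, which marks mature olfactory neurons, rose by 0.89 (limma adjusted p = 4.0e-05) and then fell by 0.43 (0.0024). The summed level of the vomeronasal transduction list was 12.18 to 12.42 and 11.98 to 12.21 at 4 weeks. It was 11.55 to 12.08 and 11.58 to 11.84 at 8 weeks, so the ranges overlapped at both times. Within arrays, this level was higher in DEP RNA on every 4-week array. At 8 weeks it was higher in DEP RNA on replicates 1 and 2 and lower on replicate 3 (11.55 against 11.58). *Gnai2* weighs most in this sum (mean log2 intensity 11.3, against 9.3 for the next, *Gnao1*). The part of these markers in the receptor ratios was not tested. Grueneberg ganglion genes, 4 in the list and 2 of them tested, gave 0 calls, and *Gucy2g*, which defines that ganglion, was above background in no reading.

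**Figure D5:**
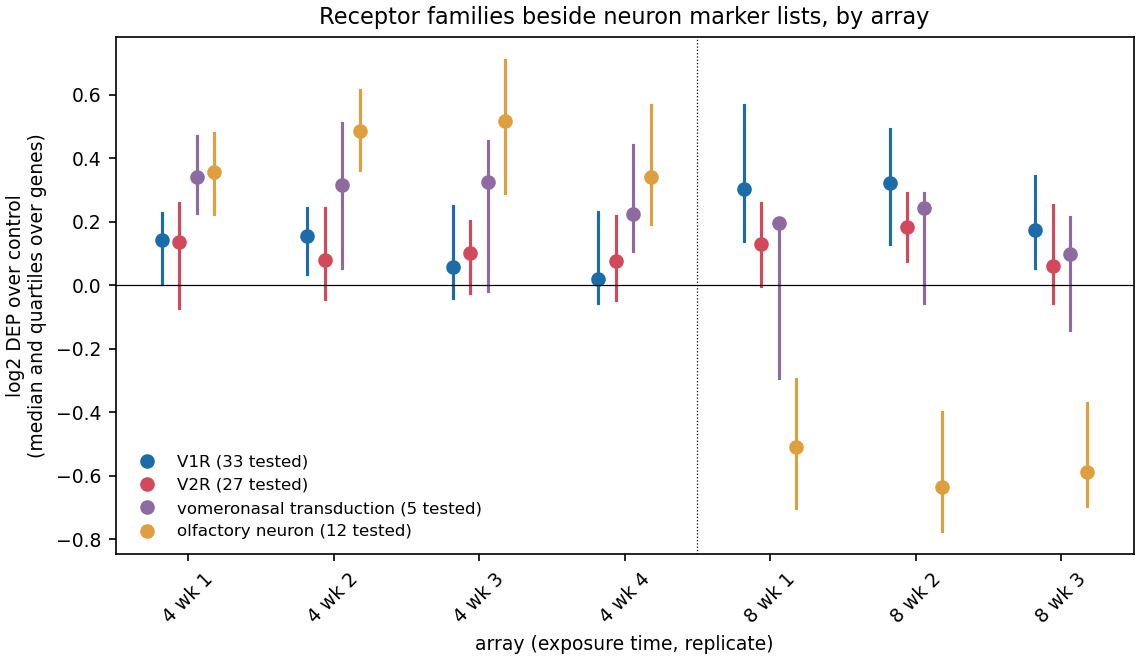
Median log2 ratio of DEP over control RNA on each array, with quartiles over genes as bars, for 33 V1R genes, 27 V2R genes, 5 vomeronasal transduction genes and 12 olfactory neuron markers. The olfactory neuron medians lie between 0.34 and 0.52 at 4 weeks and between -0.64 and -0.51 at 8 weeks, and the V1R medians lie between 0.019 and 0.32 over the 7 arrays.

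Exocrine gland peptides are ligands of V2R receptors, and 2 of the 15 listed were on the array. *Esp1*, the ligand of *Vmn2r116*, was above background in 1 reading. *Esp6* had ratios of 3.08, 2.40, 2.98 and 2.09 at 4 weeks, with a mean of 2.64 (limma adjusted p = 2.1e-05), and -0.26, -0.49 and -0.37 at 8 weeks (limma adjusted p = 0.14).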

How the data were processed

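Nasal tissue RNA was measured on 7 2-colour Agilent arrays. Per the file headers, the authors deposited scanner intensities per spot, made with Agilent Feature Extraction 10.10.1.1, and these were not yet normalized across arrays in the columns used here (median signal and median background). Background was corrected with normexp (offset 50), fitted without spots that the software marked as background outliers, and each array was normalized by loess in limma 3.58.1 (R 4.3.3). Spots marked as not uniform or as population outliers were left out, and spots of a probe were averaged. Probes well above background in either RNA on at least 3 arrays were tested with lmFit and eBayes on all 7 arrays, with a mean for each exposure time and their difference, and p-values were adjusted by Benjamini-Hochberg. Where a gene had several tested probes, the brightest on average stood for the gene. Levels were background corrected, and those of different probes were set together only in the list sums and in picking bright probes or genes. A channel never above background at a time gave a bound, computed against the lowest signal well above background. A saturated spot was found for no member. The labels call the arrays of a time biological replicates, and p-values measure the spread between arrays.

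Named genes were members called in any comparison (up to the 15 lowest p per comparison and direction), the 5 highest and 5 lowest ratios with the same sign on every array of a time, the 10 members with the highest mean intensity, family C genes, receptors with a known ligand, genes the study lists, and genes of the marker lists. The members and lists were chosen with earlier results of these data known. The script was tested on simulated data. Alternatives to the background correction, normalization, filter, probe rule, test and samples were run. The processing alternatives and the single-array omissions are given at the end. Coordinates of upstream sequence are those of RefSeq GRCm38.p6, and those of the arrays were not used.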

Additional observations from a re-analysis of the deposited data

Results flagged for a closer look

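At 4 weeks, single arrays stood far from the other 3 for 5 members of the named set, always with a low ratio of DEP over control RNA. The log2 ratio of *Vmn1r204* was -1.52 on replicate 3, that of *Vmn2r115* was -1.69 on replicate 3, that of *Vmn2r116* was -2.57 on replicate 2, that of *Vmn2r5* was -2.90 on replicate 3 and that of *Vmn2r83* was -1.46 on replicate 2. In each of these spots the control RNA was the bright one before normalization. Its signal over background, in scanner units, was 537 against 127.5 in DEP RNA for *Vmn1r204*, 456.5 against 26 for *Vmn2r116*, 594 against 19 for *Vmn2r5*, 195.5 against 12.5 for *Vmn2r115* and 116 against 3 for *Vmn2r83*. On the other 4-week arrays, *Vmn1r204* had ratios between 0.34 and 0.44. Chance alone marks about 1 in 20 groups of this size. Of the 58 tested members with 4 ratios at 4 weeks, 9 were marked. That rate covers only *Vmn1r204* of the 5, because the others were not tested. Values under -4 on a single array, chosen after they were seen, were also found. At 8 weeks, replicate 1 gave -9.18 for *Vmn1r30* (control signal 92357 against 61) and -4.25 for *Vmn1r23* (1491 against 2). At 4 weeks, replicate 3 gave -4.63 for *Vmn2r98* (1815.5 against 7) and -4.13 for *Vmn2r59* (1293 against 9), and replicate 4 gave -4.05 for *Vmn2r27* (1331 against 8). The cause was not tested.

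The median over all members also had an array apart from the rest at 4 weeks, replicate 2 for the V1R family (0.033) and replicate 4 for the V2R family (0.056).

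Ratios at 8 weeks differed from those at 4 weeks for 10 members by the test of the difference itself (limma, Benjamini-Hochberg), where a positive value is a higher ratio at 8 weeks. The differences were 1.14 for *Vmn1r214* (adjusted p = 0.00057), 0.77 for *Vmn1r89* (0.0078), 0.60 for *Vmn1r173* (0.0026), 0.54 for *Vmn2r57* (0.021) and 0.49 for *Vmn2r4* (0.0011). Smaller ones were 0.37 for *Vmn2r3* (adjusted p = 0.035), 0.28 for *Vmn1r59* (0.036) and 0.26 for *Vmn1r48* (0.038), and the negative ones were -0.31 for *Vmn2r121* (0.038) and -0.54 for *Vmn1r65* (0.049). *Vmn1r59* and *Vmn2r57* were below background in both RNAs on every 4-week array, so their differences are set against a ratio of background. *Vmn1r89* and *Vmn2r57* needed DEP RNA to pass the detection rule, so their differences cannot be read apart from it. Exposure time and slide cannot be told apart.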

How the results depend on the processing

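Leaving out each array in turn gave 2 to 5 V1R genes (5 with all arrays) and 3 to 9 V2R genes (8) at 4 weeks, 7 to 19 V1R genes (17) and 2 to 6 V2R genes (4) at 8 weeks, and 5 to 12 genes (10) for the difference between the times. The median over all V1R genes was then -0.050 to -0.022 at 4 weeks and 0.043 to 0.060 at 8 weeks. With the processed signals of the scanner software, 14 V1R and 13 V2R genes were called at 4 weeks, 9 V2R genes at 8 weeks and 19 genes for the difference, and the medians were -0.87 and -0.78 at 4 weeks and -0.13 and -0.11 at 8 weeks. Median centring gave medians of 0.0070 and 0.032 at 4 weeks and 0.16 and 0.14 at 8 weeks. The median over all genes was -0.17 and -0.10 with the processed signals, and that over all genes tested was -0.11 at 8 weeks with median centring. A filter on both RNAs on all arrays gave 3 V1R and 2 V2R genes at 4 weeks, 10 V1R genes at 8 weeks and 2 genes for the difference, with fewer genes tested. No filter gave 11 V1R genes at 4 weeks, 7 V2R genes at 8 weeks and 5 genes for the difference. The background fit on all spots gave 2 V1R and 3 V2R genes at 4 weeks, 6 genes for the difference and V1R medians of -0.024 and 0.039. An offset of 16 gave 8 V1R genes at 4 weeks, V1R medians of -0.074 and 0.10, and a V2R median of 0.080 at 8 weeks. Without background subtraction the V1R medians were -0.016 and 0.021. The methods' t-test with Benjamini-Hochberg adjustment, unpaired, gave 1 V1R and 2 V2R genes at 4 weeks and 2 and 2 at 8 weeks. Paired within arrays, it gave 5 V1R and 2 V2R genes at 4 weeks, where 4717 genes of all were called. At 8 weeks the paired test gave 0 and 0, where 387 genes of all were called. A weaker detection mark raised the genes detected on at least 3 arrays from 60 to 147, and no test was run with that mark. With the mean over probes, *Vmn1r217* turned to -0.073 at 4 weeks (limma adjusted p = 0.76). The replicate numbers did not pair the arrays (r = -0.0066, -0.0068 and 0.017 for same-numbered arrays), and the replicate block gave 4 genes for the difference. The causes of these changes were not tested. The number of arrays limits the precision, and dim probes limit what can be read for most members.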
